A study of Homo sapiens with 2 samples.

Results

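SDHAF1, SERTAD1, ITPRIPL1, EVI2B, SCO2, PCED1B and A4GALT are 7 human genes with few exons whose transcripts were recovered by an antibody to N6-methyladenosine (m6A) over most of their length in GM12878 cells. They are 7 of the 47352 gene names in the table. They were chosen by name, with the ratio of immunoprecipitated (IP) to input coverage in view, so that ratio is given for them as a description and no test of it is made. All rows under each name were taken, and IP was set against input window by window without dividing by the gene's own median.

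The study has 1 m6A IP library and 1 input library, both of fragmented total RNA from GM12878, an Epstein-Barr virus-transformed human lymphoblastoid B cell line grown in RPMI with 15% serum. RNA was taken with TRIZOL and cleaned on columns, and libraries kept strand information through dUTP. No treatment or genotype separates the libraries, which differ in the antibody step alone as far as the labels say. With 1 library of each kind there is no replicate check, and intervals below cover counting error only. They count every read as independent, and are too narrow where copies of one fragment were read, since these are not independent molecules. The source field of the labels reads mouse embryonic stem cells, while the organism and cell line fields read human GM12878. In the input all 8 B cell markers examined were above a mean scaled coverage of 1, led by CD74 at 775, and none (0) of 6 pluripotency markers was, the highest being SOX2 at 0.153. Of the markers of other cells, 1 of 5 T cell genes (CD3E, 1.52), 1 of 5 myeloid genes (ITGAM, 1.12), 0 of 4 fibroblast genes and 0 of 4 erythroid genes were above 1.

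m6A is placed on messenger RNA in the nucleus by a methyltransferase complex built around METTL3 and METTL14, and is bound by proteins of the YTH family that affect splicing, translation and decay. It is typically dense in long internal exons and in the exon that holds the stop codon, and sparse near splice junctions, where exon junction complexes sit. Transcripts with few exons have few junctions. An antibody experiment recovers fragments that carry the mark, so high IP coverage may come from many sites or from a large methylated share of molecules, and these cannot be told apart here.

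Coverage values in the table are averages over windows of 100 nt that step along the exons by 50 nt, scaled per library by the authors with a factor that the sources used here do not give. A scaled coverage of 1 corresponded to 3.71 reads per base in the IP and 5.84 reads per base in the input. Where a name had several transcript listings, the listing with most windows was used. The 7 genes then had 241 windows, between 22 and 44 each. All 7 passed the minimum of 1 for mean scaled input coverage, as did 10767 genes in all, which are called measured. For a window, the log2 ratio is log2 of IP plus 1 over input plus 1, and the gene-wide log2 ratio is the same quantity computed from the mean coverages of the listing. The threshold of 2 on that scale stands for 4-fold after 1 has been added.

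Every one of the 7 genes had a gene-wide log2 ratio above 2, against 11.3% of all measured genes, a count that the choice of genes fixed. Their median was 3.41, beside 0.34 over all measured genes. SDHAF1 ranked 21 of 10767 on this ratio and PCED1B, the lowest of the group, ranked 281. Rescaling the IP to equal total coverage, or to a median gene ratio of 1, shifts the median of all measured genes by -0.63 or -0.34, so single values are best read against that median. The 7 genes stood 3.06 above it as deposited, and 2.87 and 2.97 above it after those rescalings. Their mean input coverage lay between percentile 14.4 (PCED1B) and percentile 86.9 (EVI2B) of the measured genes.

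Among the mitochondrial assembly factors, SDHAF1, a small protein of the LYR family that helps insert iron-sulphur clusters into succinate dehydrogenase (complex II), had the highest ratio. It averaged 74.9 in the IP, about 8884 reads, and 4.04 in the input, about 754 reads. The ratio of these means was 18.5 (95% counting interval 17.2 to 19.97), and the gene-wide log2 ratio was 3.91. SCO2, a copper chaperone needed to assemble cytochrome c oxidase (complex IV), had 65.6 in the IP and 5.29 in the input, a ratio of 12.4 (11.6 to 13.3) and a log2 ratio of 3.41. Both encode proteins of the mitochondrial inner compartments that act on the respiratory chain.

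SERTAD1, a nuclear coregulator that binds cyclin-dependent kinase 4 and E2F-dependent promoters, averaged 34.0 in the IP and 2.71 in the input. The ratio was 12.5 (11.5 to 13.7) and the log2 ratio 3.24.

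Of the membrane proteins, EVI2B, a leukocyte surface glycoprotein whose gene lies inside an intron of NF1, was the most abundant of the group. It averaged 175 in the IP and 14.9 in the input, about 37051 and 4948 reads, with a ratio of 11.8 (11.4 to 12.1) and a log2 ratio of 3.47. ITPRIPL1, a single-pass membrane protein related to the inositol trisphosphate receptor-interacting protein, averaged 40.1 in the IP and 2.24 in the input. Its ratio was 17.9 (16.7 to 19.3) and its log2 ratio 3.67.

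A4GALT and PCED1B had the lowest log2 ratios of the 7. A4GALT, the galactosyltransferase that makes the glycolipid globotriaosylceramide (the Pk antigen, found on subsets of B cells), averaged 49.6 in the IP and 5.06 in the input, a ratio of 9.80 (9.31 to 10.3) and a log2 ratio of 3.06. PCED1B, a protein with a PC-esterase domain, averaged 16.9 in the IP and 1.51 in the input, a ratio of 11.2 (10.2 to 12.3) and a log2 ratio of 2.83. PCED1B stood above A4GALT in the ratio of means and below it on the log2 scale, since adding 1 weighs more on its low input.

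Ordered by the ratio of mean coverages, SDHAF1 and ITPRIPL1 came first with intervals that overlap, followed after a gap by SERTAD1, SCO2, EVI2B and PCED1B, whose intervals all overlap, and by A4GALT, whose interval meets that of PCED1B alone. The intervals are narrow because the genes were deeply read, and they leave out variation between libraries. The order and the gap thus describe this pair of libraries only. The smallest number behind any mean was about 526 input reads in PCED1B.

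**Figure D1:**
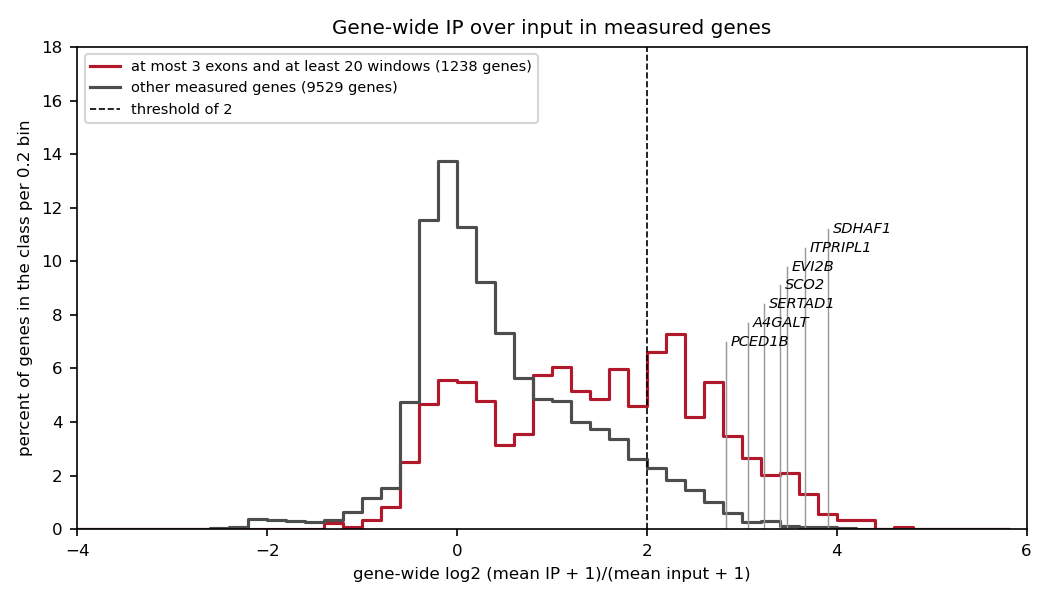
The gene-wide log2 ratio (x axis) against the percent of genes in each class per bin of 0.2 (y axis), for measured genes with at most 3 exons and at least 20 windows (red) and for all other measured genes (grey); thin vertical lines mark the 7 genes and the dashed line the threshold of 2. All 7 genes lie between 2.83 and 3.91, to the right of most genes of either class.

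High gene-wide ratios were more frequent in transcripts with few exons in general. Among measured genes with at least 20 windows, the threshold of 2 was passed by 32.1% of 330 single-exon transcripts (exact 95% interval 27.1 to 37.5), 47.0% of 406 with 2 exons (42.1 to 52.0), 30.7% of 502 with 3 exons (26.7 to 34.9) and 8.65% of 8036 with 4 or more (8.04 to 9.28). Median input was 3.30, 2.64, 2.96 and 3.69 in the same order, and median length 39.5, 47, 44.5 and 66 windows. By the listing used here SDHAF1 and ITPRIPL1 have 1 exon, A4GALT has 3 and the other 4 genes have 2. Over the 1238 measured genes with at most 3 exons and at least 20 windows, 36.4% passed the threshold and the median gene-wide log2 ratio was 1.47. Within that class SDHAF1 ranked 13 and PCED1B 151.

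Enrichment did not in fact run along the whole length of these transcripts. A window log2 ratio of 2 or more was found in 159 of the 241 windows (66.0%, exact interval 59.6 to 71.9), against 7.72% of all windows of measured genes. IP exceeded input in 222 windows (92.1%, 88.0 to 95.2), against 44.2%. These intervals treat windows as independent, and since neighbouring windows overlap by 50 nt they are too narrow. The share of windows at 2 or more was 75.6% in EVI2B, 75.0% in ITPRIPL1, 73.9% in SDHAF1, 60.5% in A4GALT, 60.0% in SERTAD1, 59.1% in SCO2 and 55.8% in PCED1B.

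**Figure D2:**
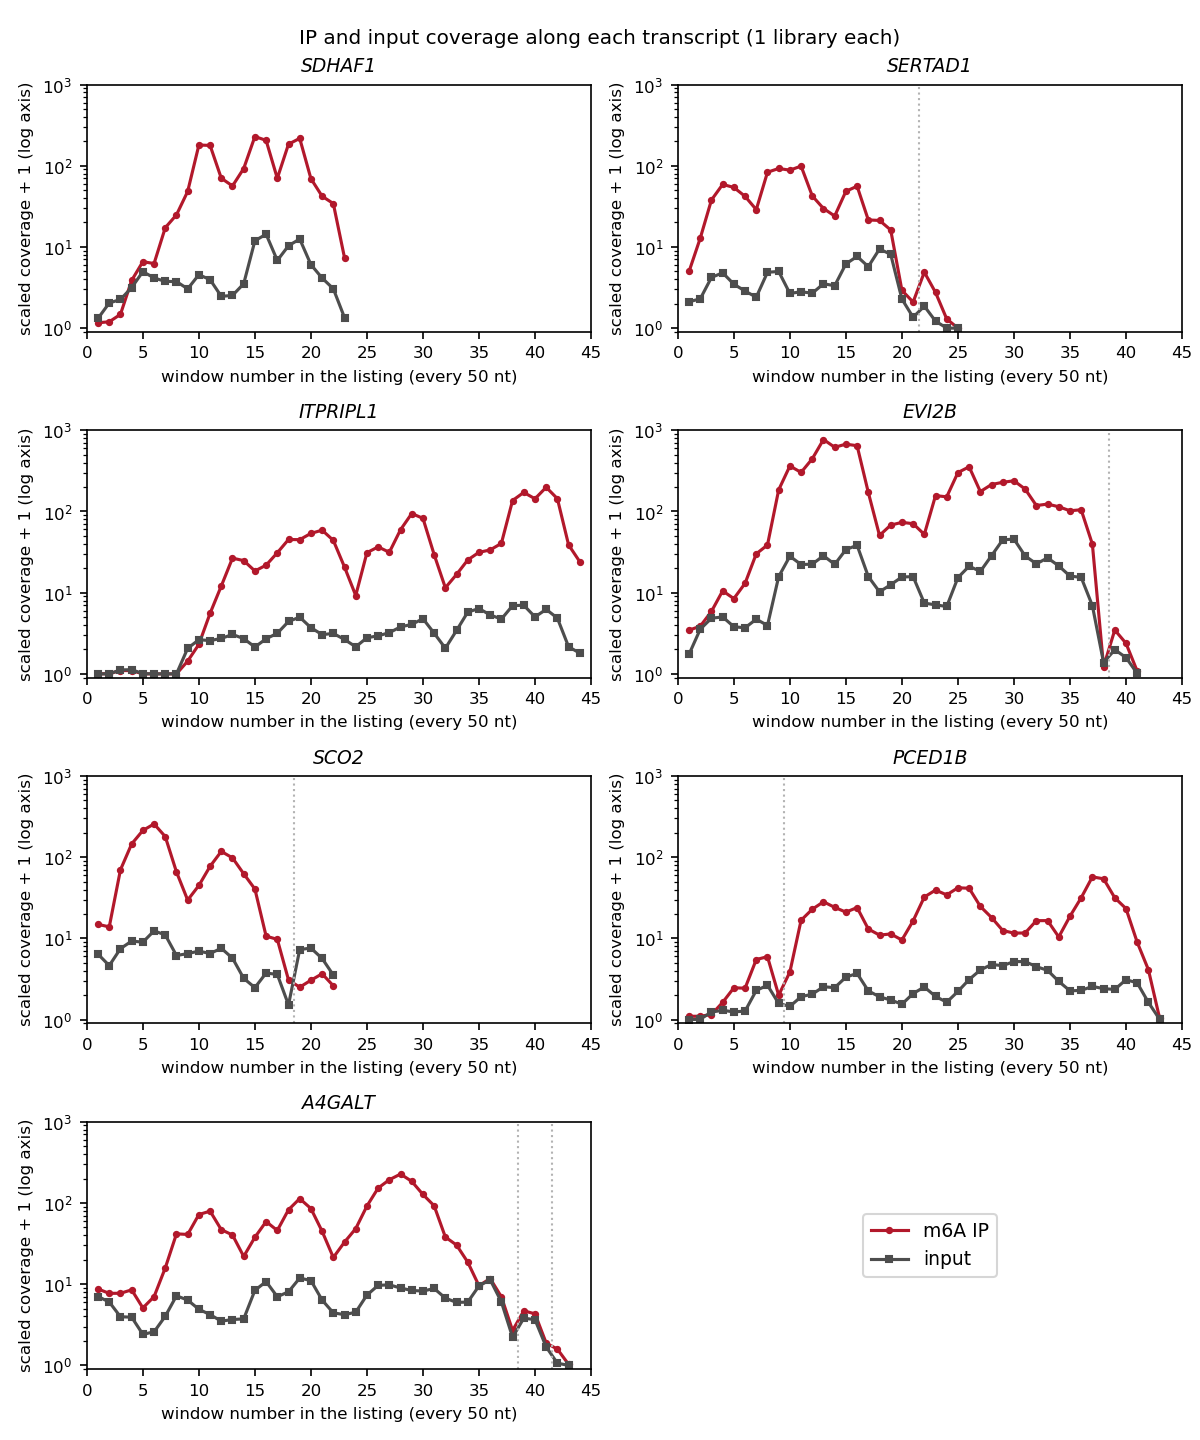
Scaled coverage plus 1 on a log axis (y axis) for the m6A IP (red circles) and the input (grey squares) in each window of the listing used (x axis, window number at steps of 50 nt); dotted lines separate exons. The IP curve stands far above the input over most of the longest exon and comes close to it, or lies below it, at 1 or both ends. In the short exons no log2 ratio, with 1 added, is above 1.39. In the short exon of the SCO2 listing used, whose windows are also listed under TYMP, the IP is below the input.

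On this scale, with 1 added, the windows at 2 or more all lay in the longest exon. In the 7 listings that exon held 159 of 216 windows at 2 or more (73.6%), whereas the short exons of the 5 genes with several exons held 0 of 25. That allows a share of up to 13.7% (exact 95% limit, counting the overlapping windows as independent), beside 7.72% of all windows of measured genes. The highest log2 ratio in a short exon was 1.39, in SERTAD1. Input was under 1 in every short-exon window of SERTAD1 and EVI2B, where adding 1 holds the ratio down. The first 2 of these windows in SERTAD1 had 3.88 and 1.75 in the IP against 0.865 and 0.219 in the input, above 4-fold before 1 is added. So were windows 5 and 6 of PCED1B, with 1.46 and 1.44 against 0.245 and 0.274. The first window of exon 3 in A4GALT was too, with 0.584 against 0.0634. Windows of still lower coverage included 0.0808 against 0.0137 in EVI2B and 0.0996 against 0.0103 in PCED1B. In SCO2 and A4GALT short-exon input reached 6.60 and 2.81. The split was not repeated with another number added. The enriched windows were also nearly unbroken: the longest uninterrupted run at 2 or more was 33 windows in ITPRIPL1, 31 in EVI2B, 26 in A4GALT, 17 in SDHAF1 and PCED1B, 15 in SERTAD1 and 13 in SCO2. In all but PCED1B that run included every window of the gene at 2 or more.

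Listings run along the genome and not along the transcript. The longer of the terminal exons was listed last in 92.7% of 3371 measured genes that RefSeq (GRCh38.p14) places on the plus strand and first in 92.3% of 3122 on the minus strand. RefSeq's table gave a strand for 5 of the 7 genes: plus for SDHAF1, ITPRIPL1 and PCED1B, minus for SERTAD1 and A4GALT. In each of these the short exons, or in SDHAF1 the first listed windows, lie on the 5′ side.

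In SDHAF1 the low stretch was at the 5′ end of its single exon. IP coverage in windows 1 to 3 was 0.164, 0.197 and 0.476, below the input at 0.320, 1.04 and 1.25. From window 7 onwards every window was at 2 or more, with 16.2 in the IP and 2.76 in the input there. The highest ratio was in window 11, where 177 in the IP stood against 2.95 in the input, a log2 ratio of 5.49 resting on about 1825 and 48 reads. IP coverage itself was highest at windows 15 and 16 (228 and 204) and again at window 19 (216), where input was also higher at 10.9, 13.3 and 11.5. The last window still had 6.35 in the IP and 0.346 in the input.

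SCO2 showed 2 humps in its longest exon. Window 5 had 213 in the IP and 7.99 in the input (log2 ratio 4.57), window 9 had 28.6 and 5.50 (2.19), and window 14 had 61.5 and 2.22 (4.28). In the second exon of the listing used, IP was below input in all 4 windows, with 1.51 in the IP against 6.29 in the input in the first of them (log2 ratio -1.54). All 4 of these windows carry the same values as windows listed under TYMP, the neighbouring thymidine phosphorylase gene, whereas 0 of the 18 windows of the longest exon do. TYMP as a whole had 7.46 in the IP and 5.90 in the input. In the 2 SCO2 listings whose second exon shares no window with TYMP, the gene-wide log2 ratio was 3.61 and 3.59, against 3.41 in the listing used. The first window of the second exon had 2.48 and 2.28 in the IP in those listings, above the input at 1.20 and 1.05. In the last window of that exon IP was below input in both.

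In SERTAD1 the ratio was highest in the middle of its long exon, at 97.9 in the IP and 1.80 in the input in window 11 (log2 ratio 5.14, about 1011 and 29 reads). From there toward the 5′ side the IP was lower and the input at first higher. Window 18 had 20.2 in the IP and 8.43 in the input, the highest input of the transcript, and a log2 ratio of 1.17. The 4 windows of the short 5′ exon had 3.88, 1.75, 0.296 and 0 in the IP, against 0.865, 0.219, 0 and 0 in the input.

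EVI2B had the highest coverage of the group and a pair of main humps. IP peaked at 768 in window 13, where input was 27.5, and the highest log2 ratio was 4.79 in the next window. A trough of 49.7 in the IP and 9.24 in the input at window 18 still had a log2 ratio of 2.31. The second hump reached 354 in the IP and 20.2 in the input at window 26. From window 28 to window 37 the log2 ratio stayed between 2.20 and 2.91, with input as high as 44.6 at window 30, beside 238 in the IP. Windows 1 to 6 were all under 2, and the short exon had at most 2.47 in the IP and 0.985 in the input. NF1, the gene around it, had a mean of 1.89 in the IP and 1.97 in the input. Whether strand was used when coverage was computed is not given in the sources used here, so reads from opposite strands may be pooled.

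ITPRIPL1 has 4 listings that share the long exon and differ in the sequence before it. In the single-exon listing used, windows 1 to 8 had at most 0.0996 in the IP and 0.125 in the input, so this stretch was hardly covered in either library. Windows 9 and 10 had 0.436 and 1.31 in the IP, against 1.06 and 1.63 in the input. All 33 windows from 12 to 44 were at 2 or more. Within them the IP had several crests and troughs, with 57.8 at window 21, 8.22 at window 24, 93.3 at window 29, 10.5 at window 32 and 198 at window 41, beside input of 2.04, 1.15, 3.07, 1.07 and 5.23. The listing with 3 exons gave a gene-wide log2 ratio of 3.60. In its first exon, which was covered in both libraries, window 2 had 2.55 in the IP and 3.18 in the input.

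The highest humps in the long exon of A4GALT were at windows 11, 19 and 28, with 78.3, 112 and 226 in the IP and 3.22, 10.9 and 7.96 in the input. A smaller crest at window 16 had 58.0 in the IP and 9.76 in the input. The log2 ratio at window 28 was 4.66. Here the enrichment fell step by step on the 5′ side, from 126 in the IP and 7.22 in the input at window 30 to 29.3 and 4.96 at window 33. It was gone at window 35, with 8.57 and 8.50, and at window 36, with 10.7 and 10.3. The 5 windows of the 2 short exons had log2 ratios from 0.04 to 0.58. On the 3′ side windows 1 and 2 had 7.71 and 6.71 in the IP against 6.04 and 5.03 in the input.

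PCED1B had the lowest coverage and the most broken pattern. The highest humps of its long exon were at windows 13, 25 and 37, with 27.2, 41.0 and 56.2 in the IP and 1.54, 1.22 and 1.56 in the input. Between the second hump and the last, 10.6 in the IP stood against 4.19 in the input at window 30, a log2 ratio of 1.16. Input was at its highest for the transcript in that dip. The 9 windows of the 5′ exon had log2 ratios from -0.10 to 1.26. The same windows are listed a second time under FAM113B, an older name of the gene, in a listing of 49 windows with a gene-wide log2 ratio of 2.77. The antisense gene PCED1B-AS1 had 0.342 in the IP and 0.429 in the input.

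The step from the short exons into the long one was compared with that of other few-exon genes. In the 5 genes whose listing has several exons, the 2 windows at the inner edge of the long exon had a median log2 ratio of 0.82, the next pair 2.09, the pair after that 2.54, and all windows further in 2.97. Median input was 1.07, 7.76, 4.84 and 3.90 in the same order. The first pair thus had the lowest ratio at the lowest input. The next pair, at the highest input, still had a lower ratio than the windows further in. In 773 other measured genes of at most 3 exons with a long terminal exon the medians were 0.51, 1.05, 1.503 and 0.30. With the long exon cut into 3 equal parts, the part farthest from the other exons had 28 of 48 windows (58.3%) of the 5 genes at 2 or more, against 9.33% in the others. In the inner part it was 36 of 51 (70.6%) against 34.3%. The 5 genes were chosen on this ratio, so these shares are a description. By gene, the outer part had a median log2 ratio of 3.60 in SCO2, 3.58 in SERTAD1, 2.91 in PCED1B, 2.25 in EVI2B and 1.71 in A4GALT, so A4GALT was the one with a median under 2 there.

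The authors' deposited score removes nearly all of this enrichment. It is the log2 ratio of IP over its gene median to input over its gene median, with 1 added to each number, so the level at which a gene's typical window stands drops out. The medians were 47.2 in the IP and 2.76 in the input for SDHAF1 and 113 in the IP and 14.6 in the input for EVI2B. They lower every window's log2 ratio by 3.68 in SDHAF1, 3.33 in SERTAD1, 3.24 in ITPRIPL1, 2.87 in EVI2B, 2.86 in SCO2, 2.85 in PCED1B and 2.65 in A4GALT. One window of the 241 (0.415%, 0.0105 to 2.29) then had a score of 2 or more, against 5.75% of windows in measured genes. It was window 28 of A4GALT, at 2.01. The highest score in the other genes was between 1.65 in PCED1B and 1.92 in EVI2B.

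**Figure D3:**
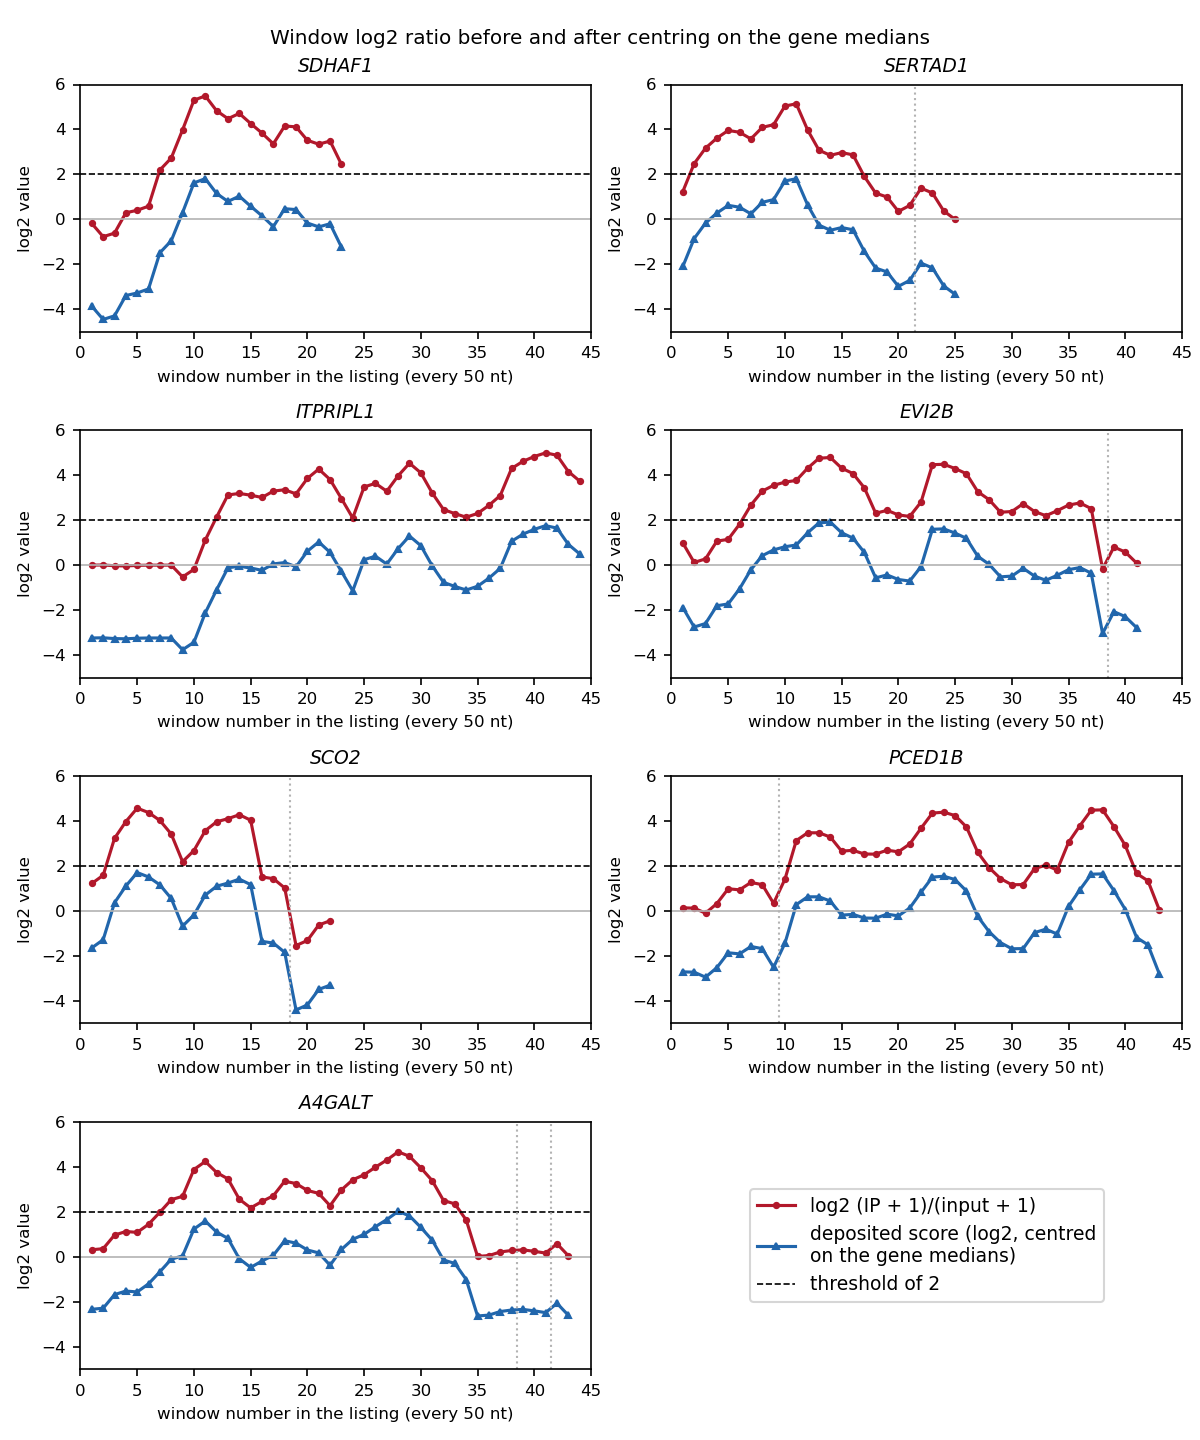
Log2 value (y axis) in each window of the listing used (x axis), as the log2 ratio of IP to input (red circles) and as the deposited score centred on the gene medians (blue triangles); the dashed line marks 2 and dotted lines separate exons. The curves run in parallel within a gene, offset by 2.65 to 3.68, and 1 blue point, in A4GALT, reaches 2.

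None (0) of the 7 genes had 2 consecutive windows with a score of 2 or more, whereas 44.2% of measured genes did. The 7 were chosen with the uncentred ratio in view, so this count and the share of windows at that score are descriptions. They are not alone in this. Of the 1217 measured genes with a gene-wide log2 ratio of at least 2, 110 (9.04%) had no such pair of windows, and these include the 7. In the few-exon class it was 51 of 451 (11.3%).

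The score also turned the low ends of these transcripts into strongly negative values. Window 2 of SDHAF1 scored -4.45, the lowest score of any window in the table, although its log2 ratio was -0.77. The first window of the second exon of SCO2, in the listing used, scored -4.41, beside a log2 ratio of -1.54. In A4GALT, window 35 scored -2.64, where IP and input were 8.57 and 8.50.

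Genes related to the 7 by sequence, by pathway or by position were then examined. The list has 43 names, of which 39 are in the table and 33 are measured, standing for 32 genes because PCED1A is also listed under its older name FAM113A. A gene-wide log2 ratio of at least 2 was found in 8 of the 33 (24.2%), against 11.3% of all measured genes, and the median was 0.77. SERTAD2, SERTAD3, CDCA4, ITPRIP and ITPRIPL2 among these 8 have at most 3 exons and at least 20 windows, a class in which 36.4% passed. ACN9, COX19 and COA5 are also of that class and were under 2. Relatedness was thus not separated from exon number. All 8 had a pair of windows at a deposited score of 2 or more, with highest scores from 3.17 to 6.04. Such a pair was missing in 9.04% of all measured genes at 2 or more. In the 8 relatives, 16.9% to 38.7% of windows had a log2 ratio of at least 2, beside 55.8% to 75.6% in the 7 genes. The 7 were chosen with this ratio in view, so the difference is a description.

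**Figure D4:**
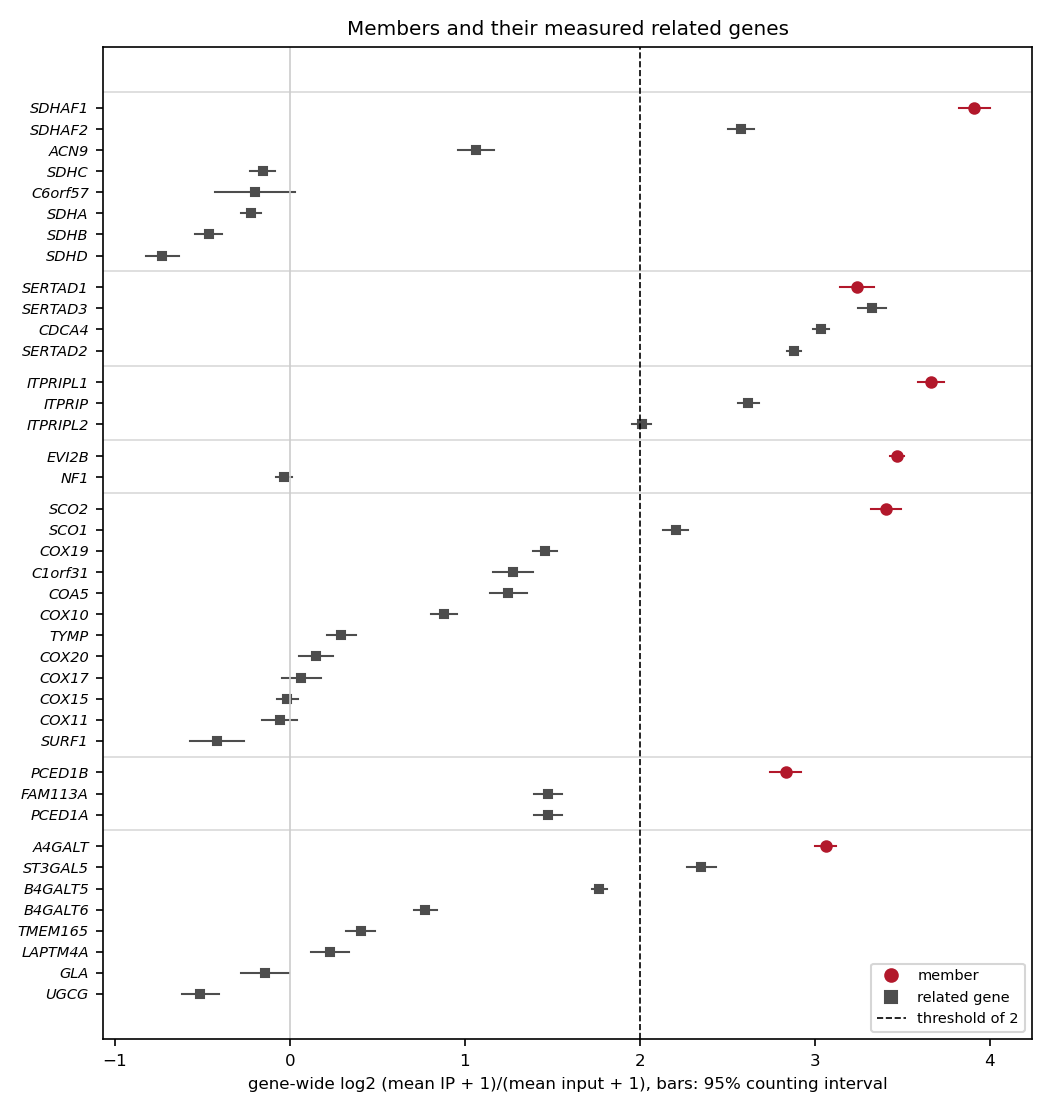
The gene-wide log2 ratio as deposited (x axis) with its 95% counting interval (bars) for each of the 7 genes (red circles) and its measured related genes (grey squares, below it); the dashed line marks 2. The relatives of SERTAD1 and ITPRIPL1 all lie at or to the right of 2, and those of SDHAF1, SCO2 and A4GALT spread from below 0 to 2.58.

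In the SERTA family the 3 measured relatives were above 2 as deposited, and SERTAD3 was close to SERTAD1. SERTAD3, which lies beside SERTAD1 in the genome, averaged 44.5 in the IP and 3.54 in the input (log2 ratio 3.32), CDCA4 had 88.9 and 9.97 (3.03), and SERTAD2 had 43.7 and 5.08 (2.88). SERTAD4 was listed at 0 in both libraries. The share of windows at 2 or more was lower than in SERTAD1, with 12 of 31 in SERTAD3, 28 of 112 in SERTAD2 and 9 of 50 in CDCA4. ITPRIP had 16.3 in the IP and 1.82 in the input (2.62), and ITPRIPL2, a single-exon gene of 154 windows, had 7.24 and 1.05 (2.01), with 26 windows at 2 or more.

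Around SDHAF1, complex II itself was not enriched. The subunits SDHA, SDHB, SDHC and SDHD had log2 ratios of -0.22, -0.46, -0.16 and -0.73 and no window at 2 or more, on transcripts of 4 to 15 exons. For SDHB, the iron-sulphur subunit that SDHAF1 acts on, the means were 11.6 in the IP and 16.4 in the input. Among the other assembly factors SDHAF2, which attaches the flavin cofactor to SDHA, had 46.0 in the IP and 6.87 in the input (2.58), ACN9 (now SDHAF3) had 4.95 and 1.84 (1.06), and C6orf57 (now SDHAF4) had 0.76 and 1.01 (-0.20).

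Around SCO2, its paralogue SCO1 had 27.2 in the IP and 5.12 in the input (log2 ratio 2.20), with 11 of 37 windows at 2 or more. The remaining cytochrome c oxidase assembly genes were under 2, from 1.46 in COX19 and 1.27 in C1orf31 (now COA6) to 0.06 in COX17, a copper carrier that hands copper to SCO proteins, and -0.42 in SURF1. In the glycolipid pathway of A4GALT, ST3GAL5, the sialyltransferase that makes ganglioside GM3 from the same lactosylceramide, had 12.1 in the IP and 1.57 in the input (2.35). B4GALT5 and B4GALT6, which make lactosylceramide, had log2 ratios of 1.77 and 0.77, while UGCG, the first enzyme of the pathway, had 3.27 in the IP and 5.08 in the input (-0.51) and GLA, the lysosomal enzyme that degrades the A4GALT product, -0.14. PCED1A had 11.9 in the IP and 3.65 in the input (1.48). EVI2A, which lies beside EVI2B, was just below the input minimum, with 7.71 in the IP and 0.95 in the input.

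How low the ratio fell along a gene was measured by the 10th percentile of its window log2 ratios, a value that about 9 in 10 windows of the gene reach or exceed. By this measure the 7 genes were not at the top of the 1238 few-exon genes. EVI2B ranked 40 with a 10th percentile of 0.58, SERTAD1 ranked 51 (0.47), PCED1B 74 (0.33), A4GALT 105 (0.21), ITPRIPL1 257 (-0.01), SDHAF1 335 (-0.09) and SCO2 944 (-0.61), which brings back the low 5′ stretches, the uncovered start of the ITPRIPL1 listing and the TYMP windows in SCO2. Ranked by the share of windows at 2 or more they stood between 4 (EVI2B) and 41 (PCED1B) of the 1238.

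The 10 other genes with the highest 10th percentile were GPR174, RSC1A1, ADAT3, MRFAP1L1, CCR8, GPR183, GPR15, C15orf39, XLOC_009836 and P2RY11, with values from 1.72 in GPR174 to 1.13 in P2RY11. GPR174, a lymphocyte receptor with 1 exon, had 21 of 26 windows at 2 or more, with a mean of 32.0 in the IP and 2.03 in the input. GPR183, an oxysterol receptor that guides B cell positioning, had 28 of 37, with 311 in the IP and 17.1 in the input. Of the 10, GPR174, MRFAP1L1, CCR8, GPR183, XLOC_009836 and P2RY11 also had no pair of consecutive windows at a deposited score of 2, while RSC1A1, ADAT3, GPR15 and C15orf39 had one. Such a pair was present in 44.2% of all measured genes, and missing in 11.3% of few-exon genes with a gene-wide log2 ratio of at least 2. The 10 were ranked on the same window ratios, so this too is a description.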

How the data were processed

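Samples were grouped by their titles as 1 m6A IP and 1 input. Per the submitters' processing notes, TopHat 1.1.3 and hg19 were used. Which program counted coverage, and on which gene models, is not given in the sources used here. Deposited were 3335372 windows in 74211 listings. Per the file headers, the authors deposited a signal, the scaled coverage of IP and input, its median per gene name, and a log2 score per window. Recomputing the score from the other columns gave the deposited values. All values above 0 were whole multiples of 1 step per library within 0.01 step, and the commonest were 37 and 73 steps, so reads were taken as 36 nt. On 1 listing per gene the coverage stood for 58.5 M reads in the IP and 51.7 M in the input.

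From these values log2 ratios with 1 added, means and shares were calculated in scipy 1.17.1, pandas 2.3.3 and numpy 2.4.6 under Python 3.11.15, and drawn with matplotlib 3.10.9. Ratios of means carry exact conditional binomial intervals on the reads implied, gene-wide log2 ratios intervals from the same read numbers, and shares Clopper-Pearson intervals. With 1 library a group no p-value or SD is given. The 7 genes, the related genes and the settings were chosen with earlier results of these data known. The text names the 7 genes, measured related genes, and the 10 genes of at most 3 exons and at least 20 windows with the highest 10th percentile of window log2 ratios. Alternatives changed the number added, the library scaling, the listings, the windows, the threshold, the gene-wide measure and the input minimum. No sequence is printed, since no genome of the build was used here.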

Additional observations from a re-analysis of the deposited data

How the results depend on the processing

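All 7 genes kept a gene-wide log2 ratio of at least 2 under every alternative except with 5 added and at a threshold of 3, where PCED1B was below and 6 passed. Their median, 3.41 as reported, was 3.60 with 0.1 added, 2.64 with 5 added, 2.59 and 2.97 with the IP rescaled to equal total coverage or to a median gene ratio of 1, and 2.87 as the median of window ratios. Under those scalings 2.87% and 5.97% of measured genes passed the threshold. The share of windows at 2 or more was 50.6% with 5 added, 47.7% and 58.1% under those scalings, 73.0% without exon-end windows, 75.5% where window input was at least 1, 78.4% at a threshold of 1 and 43.2% at a threshold of 3. The share with IP above input was 85.5% and 87.6% under the scalings and 96.0% at an input of at least 1. The share at a score of 2 or more was 0.0% with equal totals, with every other window and at a threshold of 3, and 17.8% at a threshold of 1. The related genes at 2 or more numbered 4 with 5 added, 3 and 5 under the scalings, 15 and 2 at thresholds of 1 and 3, and 0 by the median of window ratios. Of the 10 other genes with the highest 10th percentile, 4 were shared when ranked by the lowest window, 9 with 5 added and 6 with an input minimum of 3. The other 34 values for these summaries stayed within their counting interval or within 1.5 times; causes of the moves were not tested. No paired analysis was possible because each group has 1 library.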

Other observations

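Within each of the 7 genes, IP and input coverage varied together along the transcript. Across the windows of the listing used, Spearman's rho between them was 0.89 in EVI2B (41 windows), 0.86 in ITPRIPL1 (44), 0.71 in A4GALT (43), 0.69 in SDHAF1 (23), 0.60 in SERTAD1 (25), 0.58 in SCO2 (22) and 0.52 in PCED1B (43). The other listings gave 0.79, 0.89 and 0.90 in SCO2 and 0.75, 0.77 and 0.69 in ITPRIPL1. The order of the genes thus depends on the listing. The windows of a gene overlap and share sequence composition, mappability and the drop at transcript ends, so these values describe the 2 libraries only. IP spanned more than input in each gene: between the 10th and the 90th percentile of windows, with 1 added, the log2 span was 6.68 for the IP against 2.48 for the input of SDHAF1, and 4.49 for the IP against 1.82 for the input of PCED1B, the smallest IP span of the 7.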
